A study of Homo sapiens with 6 samples.

Results

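Oxidative phosphorylation subunits are the proteins of the respiratory chain and of ATP synthase. They were taken from the count table by symbol, as protein-coding genes named MT-ND, MT-CO, MT-ATP or MT-CYB for the mitochondrial genome, and NDUFA, NDUFB, NDUFC, NDUFS or NDUFV with a number, SDHA to SDHD, UQCR, COX4 to COX8 or ATP5 for the nuclear genome. This gave 103 of the 58735 genes counted, 13 mitochondrial-encoded and 90 nuclear-encoded. Complex I oxidises NADH, complex II oxidises succinate, complex III passes electrons from ubiquinol to cytochrome c, complex IV reduces oxygen, and complex V makes ATP. All but complex II are built from proteins of both genomes. The mitochondrial genome is transcribed from both strands into long precursors that are cut into separate RNAs, so its mRNA levels depend on processing and decay as well as on transcription, while each nuclear subunit gene has a promoter of its own.

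The cells were UE7T-9, a human mesenchymal stem cell line from bone marrow, grown in DMEM. The control group was the line with the genotype given as WT, and the other group was the UE7T-9 SRRM4 KO line, made by lentiviral infection with a CRISPR v2 vector against SRRM4, a splicing regulator. Each group had 3 libraries of non-stranded mRNA-seq. The KO line was grown from 1 cell, so the genotype and the properties of that clone cannot be told apart, and the study describes the loss of the protein as incomplete. The sources used here do not say whether the libraries of a group came from separate cultures.

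The libraries held 21496117 to 23868323 counts on genes, and 3 counts, the most that a count of 0 allows, corresponded to 0.123 to 0.139 CPM (counts normalized for library size, here TMM-scaled; the limit covers counting error only). SRRM4 had 0 counts in all 6 libraries, so its RNA does not check the labels. The stromal markers NT5E, ENG, THY1, PDGFRB, COL1A1 and VIM were detected in every library. PDGFRB, COL1A1, ENG and THY1 were lower in KO (log2 fold changes -2.14, -1.23, -0.34 and -2.43) and NT5E and VIM higher (0.52 and 0.36), all passing the test (edgeR). PTPRC, PECAM1, CDH5, EPCAM, MYH7, CKM and RBFOX3, markers of other cell types, had at most 4 counts in any library. Other markers of the same types were counted: KRT18 (1647 to 2165 counts), SYT1 (450 to 614), CD14 (324 to 392), CD34 (66 to 93), SNAP25 (36 to 97), CDH1 (9 to 39) and ACTN2 (0 to 16). Of these, the 6 that were tested (all but ACTN2) did not pass between the groups. Control replicate 1 stood apart: the chi-square of its counts per degree of freedom was 23.0 and 23.4 against the other control libraries, which differed from each other by 5.59, and the KO libraries differed by 5.02 to 9.64. Results are therefore also given without it.

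In the mitochondrial genome neighbouring reading frames overlap, which bears on how reads can be assigned to the genes described here. The overlaps of more than 1 base are printed from the GENCODE release 29 transcripts, plus strand, with the shared bases in capitals and 20 bases on each side in lower case. MT-ATP8 and MT-ATP6 share 46 bases (chrM:8507-8592 printed), and MT-ND4L and MT-ND4 share 7 (chrM:10740-10786 printed).
MT-ATP8/MT-ATP6: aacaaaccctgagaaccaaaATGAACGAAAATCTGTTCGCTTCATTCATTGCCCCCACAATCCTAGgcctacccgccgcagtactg
MT-ND4L/MT-ND4: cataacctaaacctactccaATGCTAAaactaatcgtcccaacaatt
The shared bases are 22.2% of the exonic bases of MT-ATP8, the shortest of the mitochondrial members. How reads that touch both genes were counted is not given in the sources used here.

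Mitochondrial-encoded subunit mRNAs were mostly lower in SRRM4 KO cells. Of the 13, 8 fell and 1 rose at an adjusted p under 0.05 (edgeR), which is 69.2% called against 41.6% of all 15341 genes tested (20.7% higher and 20.9% lower). In 8 of the 13 the libraries of the groups did not overlap (7 lower and 1 higher in KO), as in 51.8% of all genes. The median log2 fold change was -0.50, beside -0.01 over all genes. The falls ranged from -1.44 for MT-ND6 to -0.36 for MT-CYB. Complex I genes were at both ends: MT-ND5 and MT-ND6 fell most, and MT-ND2 rose.

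The mitochondrial complex I subunits MT-ND1 to MT-ND6 and MT-ND4L form the membrane arm that pumps protons. MT-ND5 stood at 652, 656 and 451 CPM in control replicates 1 to 3 and at 256, 240 and 204 CPM in the KO libraries. It was 2.51-fold lower (log2 fold change -1.33 ± 0.13 SE, adjusted p = 7.04e-07). MT-ND6, which is encoded on the strand opposite to the others, stood at 210, 213 and 143 CPM in control and at 71.8, 77.9 and 58.2 CPM in KO. Every KO library lay below every control library for both genes. MT-ND6 was 2.72-fold lower (-1.44 ± 0.14 SE, adjusted p = 1.02e-06), and since the libraries are non-stranded its reads cannot be told apart from antisense RNA.

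MT-ND1 measured 671, 931 and 696 CPM in control and 506, 423 and 352 CPM in KO (log2 fold change -0.84 ± 0.13 SE, adjusted p = 9.12e-05). MT-ND4, the most abundant of the complex I group per length, measured 1738, 2152 and 1536 CPM in control and 1340, 1185 and 961 CPM in KO (-0.64 ± 0.12, adjusted p = 0.000523). MT-ND4L, which shares a transcript with MT-ND4, measured 172, 201 and 143 CPM in control and 135, 122 and 93.0 CPM in KO (-0.56 ± 0.14, adjusted p = 0.00367). In all 3 genes the groups did not overlap, and KO replicate 1 was the KO library closest to control.

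MT-ND2 went the other way. Its levels were 640, 768 and 581 CPM in control and 1005, 779 and 694 CPM in KO, so that KO replicate 3 lay below control replicate 2. The rise was 1.25-fold (log2 fold change 0.32 ± 0.12 SE, adjusted p = 0.0484), close to the threshold, and the call was lost without KO replicate 1 (0.15), KO replicate 2 or control replicate 3, with upper-quartile normalization, nuclear-only library sizes or at least 10 counts in every library. MT-ND3 had 66.8 CPM in control replicate 1 against 237 and 229 in the other control libraries, and 312, 277 and 251 CPM in KO. Its log2 fold change of 0.66 ± 0.30 (SE) did not pass (adjusted p = 0.0909). Without control replicate 1 it was smaller, 0.26, and passed with an adjusted p of 0.00552.

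Among the core subunits of complex IV, MT-CO1, which carries the oxygen-reducing site, was the most abundant member by CPM in every library. It measured 3987, 4567 and 3341 CPM in control and 2740, 2265 and 1904 CPM in KO, 1.72-fold lower with no overlap (log2 fold change -0.78 ± 0.12 SE, adjusted p = 7.07e-05). MT-CO2, which takes electrons from cytochrome c, measured 1124, 1392 and 1064 CPM in control and 969, 875 and 686 CPM in KO (-0.50 ± 0.12, adjusted p = 0.00274), again with no overlap. MT-CO3 measured 829, 1226 and 897 CPM in control and 1111, 984 and 792 CPM in KO. The groups overlapped and the difference was -0.03 ± 0.13 (adjusted p = 0.873).

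MT-CYB, the mitochondrial subunit of complex III, measured 877, 1145 and 822 CPM in control and 850, 745 and 618 CPM in KO. KO replicate 1 lay above control replicate 3, and the fall of 1.28-fold (log2 fold change -0.36 ± 0.12 SE, adjusted p = 0.0258) was lost without KO replicate 2, KO replicate 3 or control replicate 2 (-0.21). Of the ATP synthase subunits, MT-ATP6 measured 797, 874 and 622 CPM in control and 825, 693 and 562 CPM in KO, overlapping groups with a log2 fold change of -0.14 ± 0.13 (adjusted p = 0.414). MT-ATP8 was counted by only 9 to 27 reads per library (log2 fold change -0.44 ± 0.53, adjusted p = 0.544), with an SE larger than the difference.

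**Figure D1:**
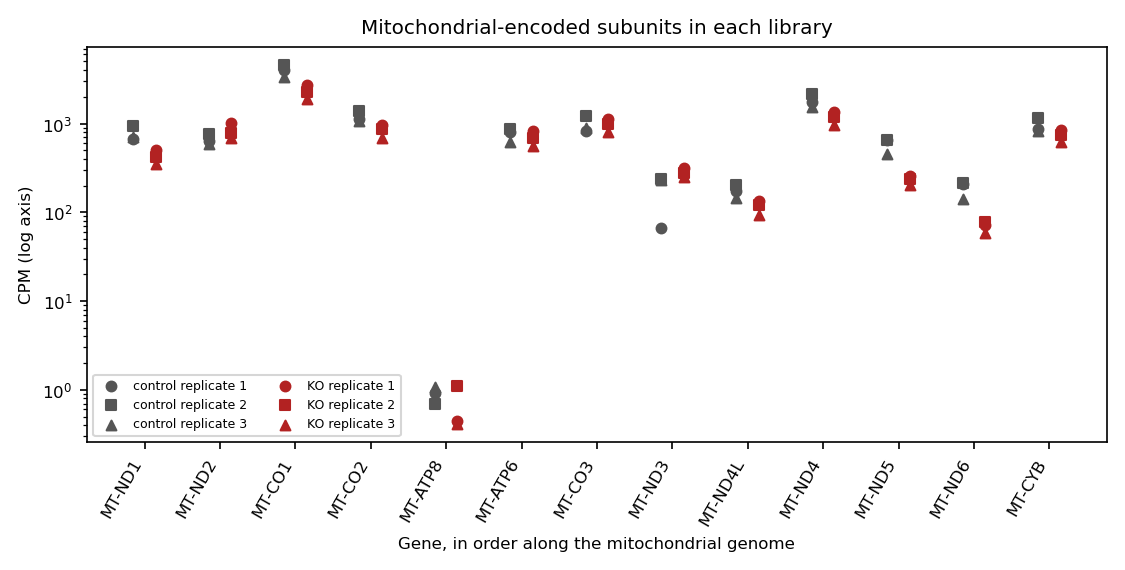
CPM (log axis) of the 13 mitochondrial-encoded subunits in gene order, with control libraries in grey and SRRM4 KO libraries in red and the marker shape giving the replicate number. KO points lie below all control points for MT-ND1, MT-CO1, MT-CO2, MT-ND4L, MT-ND4, MT-ND5 and MT-ND6, and above all of them for MT-ND3, and the ranges of the groups overlap for the other 5 genes.

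The values of mitochondrial genes can also be set against each other. The ratio of MT-ND2 to MT-CO1 counts, a pair chosen after their values were seen and therefore given without a test, was 0.160, 0.168 and 0.174 in control and 0.367, 0.344 and 0.364 in KO, 2.14-fold higher. The ratio of MT-ND5 to MT-CYB, chosen in the same way, was 0.743, 0.573 and 0.549 in control and 0.302, 0.322 and 0.330 in KO. Both ratios are taken within a library and do not depend on library scaling. The ribosomal RNA genes of the mitochondrial genome also fell, MT-RNR2 by 1.10 and MT-RNR1 by 0.60 on the log2 scale (adjusted p = 1.59e-07 and 0.000537). The libraries are mRNA-seq, and how fully they capture these ribosomal RNAs was not tested.

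Nuclear copies of mitochondrial genes can take reads from the true genes. The 3 with most counts were MTND2P28, MTATP6P1 and MTCO1P12, which are 98.4%, 98.5% and 98.6% identical to MT-ND2, MT-ATP6 and MT-CO1. MTND2P28 and MTATP6P1 had log2 fold changes of -0.04 and -0.03 that did not pass (adjusted p = 0.822 and 0.913), and MTCO1P12 fell by 0.94 (adjusted p = 0.00557). MTND2P28 had 1060 to 1472 counts per library beside 12970 to 22426 on MT-ND2. Values of these 3 mitochondrial genes carry that uncertainty.

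Mitochondrial-encoded and nuclear-encoded mRNA were compared within each library. The ratio of counts on the 13 mitochondrial members to counts on the 90 nuclear members was 2.64, 2.75 and 1.96 in control and 1.96, 1.59 and 1.36 in KO. The groups were barely apart, since control replicate 3 and KO replicate 1 were nearly equal. The log2 ratio differed by -0.58 (KO minus control; exact two-sided permutation test, p = 0.1, n = 3 and 3, the smallest p that 3 against 3 can give). As a share of all counts, mitochondrial members made 1.15%, 1.41% and 1.03% in control and 1.03%, 0.885% and 0.735% in KO, with overlap (exact permutation p = 0.2, n = 3 and 3). The nuclear members made 0.436%, 0.513% and 0.522% in control and 0.527%, 0.556% and 0.539% in KO, each KO library above each control library (log2 difference 0.15, exact permutation p = 0.1, n = 3 and 3). Without control replicate 1 that difference was 0.06. In bulk RNA, fewer mitochondrial genomes per cell and less RNA per genome cannot be told apart.

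**Figure D2:**
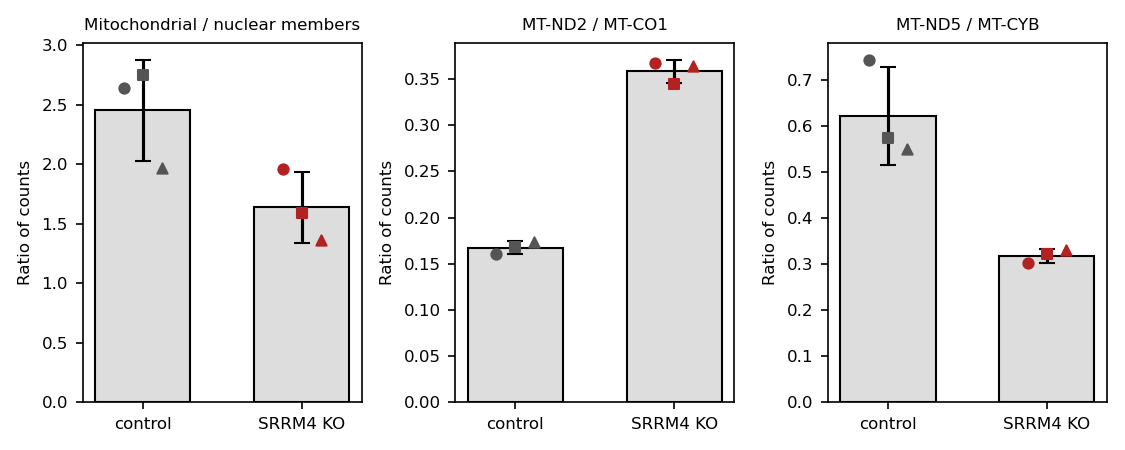
Ratios of counts per library, as points, for mitochondrial over nuclear members, MT-ND2 over MT-CO1 and MT-ND5 over MT-CYB, with bars and error bars for the mean and SD of 3 libraries. The first ratio nearly meets between the groups at 1.96, whereas the other ratios, chosen after their values were seen, leave a gap between them.

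Of the 90 nuclear-encoded subunits, 80 passed the filter on low counts. Those not tested were NDUFA7 (5 to 13 counts), NDUFV2 (0 to 8), COX6B2 (0 to 9), COX4I2 (0 to 4) and COX7B2 (0 to 3), and ATP5MF-PTCD1, NDUFC2-KCTD14, COX8C, COX6A2 and ATP5MGL, all at 0. NDUFV2 is a core subunit of complex I and NDUFA7 an accessory one, and 28.4% and 33.5% of their exonic bases lie in other annotated genes. COX4I2, COX6A2, COX6B2, COX7B2 and COX8C are known as isoforms of other tissues. ATP5MF-PTCD1 and NDUFC2-KCTD14 are read-through genes that share 93.8% and 100% of their exonic bases with their parts.

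Nuclear-encoded subunits moved in both directions and by little. Of the 80 tested, 15 rose and 9 fell, 30.0% called against 41.6% of all genes. Their median log2 fold change was 0.11 (quartiles -0.09 and 0.31), with 53 above 0 and 27 below. Without control replicate 1 the median was 0.00404, 42 lay above 0 and 38 below, 14 rose and 16 fell. Of the calls, 13 of the 15 rises and all 9 falls remained, UQCRH (0.20, adjusted p = 0.0786) and ATP5MG (0.21, adjusted p = 0.102) were lost, ATP5PB was gained as higher, and NDUFA8, NDUFS6, NDUFV1, COX4I1, COX5B and COX7A1 were among those gained as lower. Among all members, 0 rose and 3 fell past a log2 fold change of 1 (NDUFA4L2, MT-ND5 and MT-ND6), beside 5.45% and 7.14% of all genes.

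**Figure D3:**
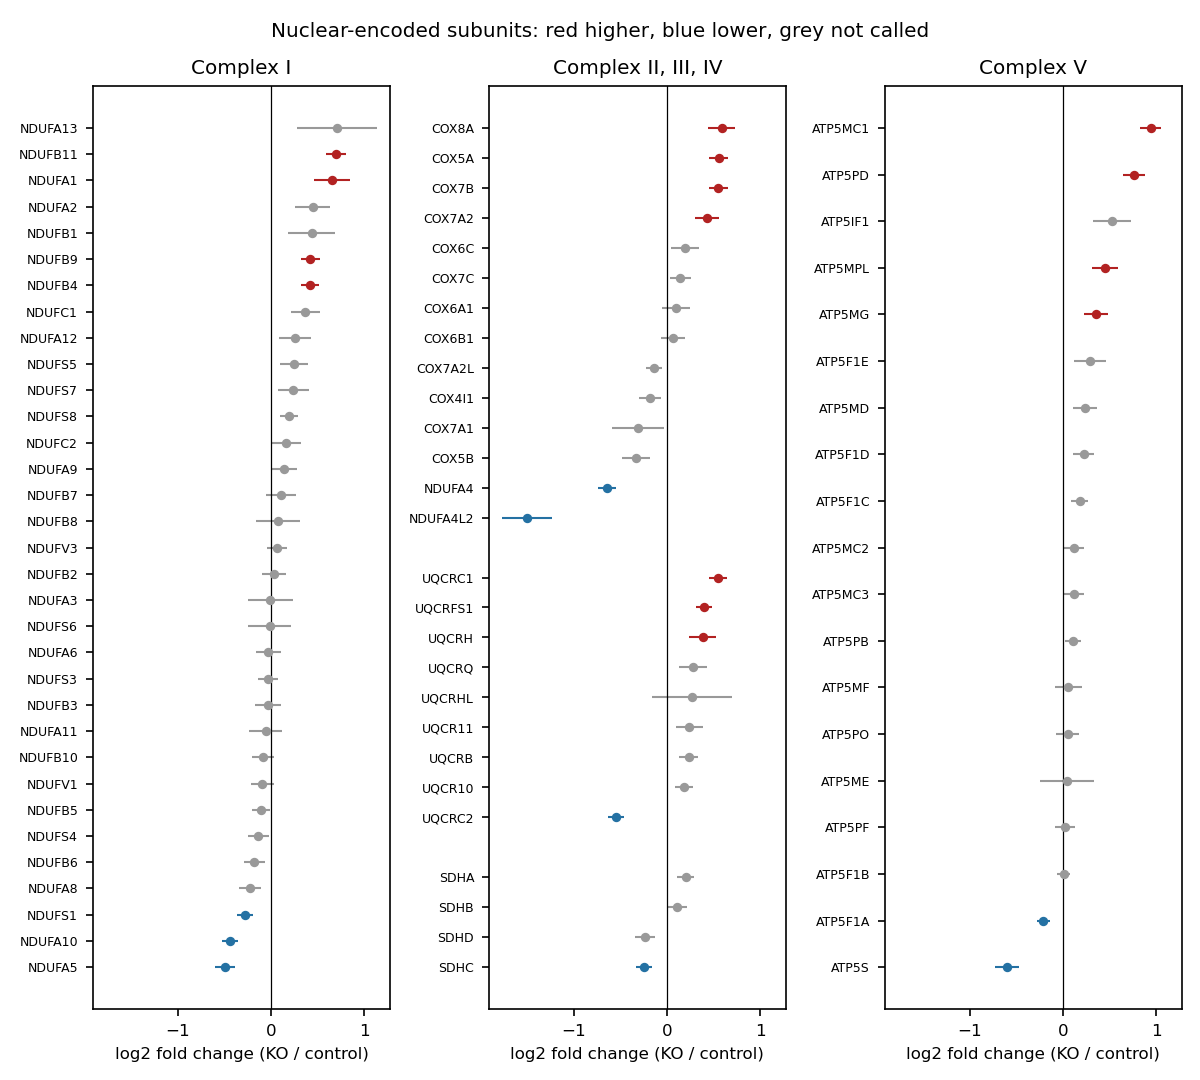
Log2 fold changes (KO over control) with their SE for nuclear-encoded subunits tested, by complex, with the middle panel holding complex II at the bottom, then III, then IV. Red points are the 15 genes that rose, blue the 9 that fell, grey those not called. Most points lie within 0.5 of 0, and NDUFA4L2 lies farthest out at -1.50.

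In complex I, 34 of 37 nuclear subunits were tested, 4 rose and 3 fell (median 0.05). The counts were 4 and 7 and the median -0.08 without control replicate 1. The 6 tested core subunits, which hold the flavin and the iron-sulphur clusters, had 0 higher and 1 lower. That one was NDUFS1, the largest iron-sulphur subunit, at 150, 143 and 133 CPM in control and 113, 111 and 127 CPM in KO (log2 fold change -0.28 ± 0.09 SE, adjusted p = 0.0171), with no overlap. The call was lost without KO replicate 1 or 2. The 28 tested accessory subunits had 4 higher and 2 lower, beside 20.7% and 20.9% of all genes. Of the 11 tested NDUFA genes of complex I 1 was higher and 2 were lower, and of the 11 NDUFB genes 3 and 0.

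NDUFB11, on the X chromosome (chrX:47142216-47145504), measured 44.0, 54.5 and 60.7 CPM in control and 88.0, 83.8 and 86.2 CPM in KO, 1.62-fold higher (log2 fold change 0.70 ± 0.11 SE, adjusted p = 0.000117). NDUFA1, also X-linked (chrX:119871487-119876662), measured 18.3, 37.3 and 37.3 CPM in control and 50.6, 50.2 and 45.4 CPM in KO (0.65 ± 0.19, adjusted p = 0.0131). Control replicate 1 was low for NDUFA1, and without it the log2 fold change was 0.38 (adjusted p = 0.0019). The call was lost with DESeq2. The groups did not overlap for either gene. NDUFB11 shares 44.9% of its exonic bases with RBM10 and NDUFA1 44.5% with RNF113A.

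NDUFB4 and NDUFB9 rose by the same log2 fold change of 0.42 (adjusted p = 0.00247 and 0.00386). The falls were in NDUFA5, with 70.4, 64.8 and 61.7 CPM in control and 40.6, 48.8 and 50.2 CPM in KO (log2 fold change -0.50 ± 0.10, adjusted p = 0.00137), and in NDUFA10, with 81.9, 89.8 and 81.6 CPM in control and 62.8, 61.1 and 62.6 CPM in KO (-0.44 ± 0.09, adjusted p = 0.000782). Both are accessory subunits, and for both each KO library was below each control library. Per length, NDUFS5 was the highest nuclear complex I gene (147 RPKM, which is CPM per kilobase of the deposited gene length, mean of 6 libraries) and NDUFA13 the lowest of those tested (0.498 RPKM), with 21.0% of its exonic bases shared with other genes.

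Complex II is wholly nuclear-encoded. Of SDHA, SDHB, SDHC and SDHD, 0 rose and 1 fell, beside 20.7% and 20.9% of all genes. SDHC, a membrane anchor, measured 108, 109 and 105 CPM in control and 89.1, 86.9 and 95.4 CPM in KO (log2 fold change -0.25 ± 0.08 SE, adjusted p = 0.0269). The groups did not overlap, and the call was lost with no filter and when KO replicate 1 or 2 or control replicate 2 or 3 was left out. The CPM sum of the 4 genes differed by -0.02 on the log2 scale (exact permutation p = 0.7, n = 3 and 3). Which of SDHB (24.1 RPKM) and SDHC (6.98 RPKM) was more abundant depended on the length used, and the order swapped with coding transcript length.

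In complex III all 9 nuclear members were tested, 3 rose and 1 fell (median 0.27), where 20.7% of all genes rose and 20.9% fell. Its core proteins UQCRC1 and UQCRC2 went opposite ways. UQCRC1 (chr3:48599002-48610976) measured 111, 136 and 139 CPM in control and 190, 199 and 177 CPM in KO (log2 fold change 0.55 ± 0.10 SE, adjusted p = 0.000293). UQCRC2 (chr16:21952660-21983660) measured 136, 120 and 133 CPM in control and 85.7, 92.8 and 87.3 CPM in KO (-0.55 ± 0.09, adjusted p = 0.000113). Both were free of overlap between groups and of exonic bases shared with other genes.

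UQCRFS1, the Rieske iron-sulphur protein, measured 76.2, 73.5 and 76.9 CPM in control and 95.8, 102 and 101 CPM in KO (log2 fold change 0.40 ± 0.08 SE, adjusted p = 0.0012). UQCRH, the hinge protein, rose by 0.39 (adjusted p = 0.0462), with control replicate 1 at 38.1 CPM and the other control libraries at 59.5 and 61.2, just below the lowest KO library at 61.7. The call was lost without control replicate 1 or any KO library, and with upper-quartile normalization, nuclear-only library sizes or at least 10 counts in every library. Within complex III, UQCR10 was the highest nuclear member per length (53.9 RPKM; UQCRB with coding transcript length) and UQCRHL, an intronless relative of UQCRH, the lowest (0.700 RPKM). The CPM sum of the nuclear members of complex III was higher in each KO library (log2 difference 0.22, exact permutation p = 0.1, n = 3 and 3). Without control replicate 1 this difference was 0.14 and the median of the members 0.12.

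In complex IV, counting NDUFA4 and NDUFA4L2, 14 of 19 nuclear members were tested, 4 rose (28.6%) and 2 fell (14.3%), beside 20.7% and 20.9% of all genes (median 0.08). The counts were 4 and 5 and the median -0.10 without control replicate 1. NDUFA4, first assigned to complex I and now known as a complex IV subunit, measured 116, 146 and 135 CPM in control and 86.4, 83.2 and 84.8 CPM in KO (log2 fold change -0.64 ± 0.09 SE, adjusted p = 5.86e-05). Its paralogue NDUFA4L2, known as a target of hypoxia-inducible factors, measured 6.45, 11.3 and 10.4 CPM in control and 3.54, 4.27 and 2.09 CPM in KO, 2.84-fold lower (-1.50 ± 0.26, adjusted p = 0.00031). Neither gene overlapped between groups. The ratio of NDUFA4L2 to NDUFA4 in RPKM was 0.0732, 0.1001 and 0.1002 in control and 0.0559, 0.0689 and 0.0352 in KO (log2 difference -0.81, exact permutation p = 0.1, n = 3 and 3, adjusted 0.2 over 4 pairs).

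COX8A measured 41.3, 61.4 and 67.3 CPM in control and 93.0, 86.6 and 76.1 CPM in KO (log2 fold change 0.59 ± 0.14 SE, adjusted p = 0.00408), and 34.5% of its exonic bases are shared with another gene. COX5A measured 50.5, 60.2 and 65.9 CPM in control and 87.7, 89.2 and 82.9 CPM in KO (0.56 ± 0.10, adjusted p = 0.000483). X-linked COX7B measured 42.1, 41.6 and 48.5 CPM in control and 58.6, 63.4 and 72.1 CPM in KO (0.55 ± 0.11, adjusted p = 0.000638). These accessory subunits had every KO library above every control library. COX7A2, the widely expressed isoform, rose by 0.43 (adjusted p = 0.013), or 0.28 without control replicate 1, and the call was lost without KO replicate 2.

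COX7A1, the muscle isoform of the same subunit, measured 6.17, 14.8 and 17.1 CPM in control and 8.20, 12.6 and 9.80 CPM in KO, and control replicate 1 lay below every KO library (log2 fold change -0.31 ± 0.28, adjusted p = 0.398; without that library -0.64, adjusted p = 0.00363). The ratio of COX7A1 to COX7A2 differed by -0.65 on the log2 scale (exact permutation p = 0.2, n = 3 and 3, adjusted 0.267). Of the 7 isoform pairs considered, COX4I2/COX4I1, COX6A2/COX6A1 and COX6B2/COX6B1 had too few counts on 1 side. Within complex IV, COX8A was highest per length (140 RPKM; COX4I1 with coding transcript length) and NDUFA4L2 lowest (2.26 RPKM) of the nuclear genes tested. The CPM sum of the nuclear members of complex IV differed by 0.05 on the log2 scale (exact permutation p = 1, n = 3 and 3), and by -0.10 without control replicate 1.

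In complex V, 19 of 21 nuclear members were tested, 4 rose (21.1%) and 2 fell (10.5%), beside 20.7% and 20.9% of all genes (median 0.12). Of the 19, 17 lay above 0, or 13 (median 0.06) without control replicate 1. The median was 0.21 without control replicate 3. The 4 rises became 2 without KO replicate 2 or 3, and the 2 falls became 1 without control replicate 2 or 3 or KO replicate 1 or 2. The strongest rise among all nuclear members was ATP5MC1, on chromosome 17 (chr17:48892765-48895871), a gene for subunit c of the proton-driven ring. It measured 26.5, 35.7 and 33.6 CPM in control and 59.4, 61.5 and 63.2 CPM in KO, 1.92-fold higher (log2 fold change 0.94 ± 0.11 SE, adjusted p = 8.76e-06). The paralogues ATP5MC2 and ATP5MC3 encode the same mature protein, and each had a log2 fold change of 0.12 with overlapping groups (adjusted p = 0.393 and 0.421).

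Accordingly, the ratio of ATP5MC1 to ATP5MC3 in RPKM was 0.989, 1.07 and 0.930 in control and 1.83, 1.72 and 1.74 in KO, with a gap between the groups (log2 difference 0.82, exact permutation p = 0.1, n = 3 and 3, adjusted 0.2). The ratio of ATP5MC2 to ATP5MC3 was 2.19, 2.30 and 2.17 in control and 2.36, 2.27 and 2.07 in KO (log2 difference 0.01, exact permutation p = 1, n = 3 and 3). The isoforms of subunit c therefore changed unequally within the same libraries.

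ATP5PD, subunit d of the peripheral stalk (chr17:75038863-75046985), measured 41.5, 54.7 and 59.4 CPM in control and 89.6, 86.7 and 88.6 CPM in KO (log2 fold change 0.77 ± 0.12 SE, adjusted p = 7.91e-05), with no overlap. ATP5S, a factor related to the coupling of the enzyme, measured 40.9, 32.0 and 30.5 CPM in control and 22.9, 24.2 and 21.3 CPM in KO (-0.60 ± 0.13, adjusted p = 0.00158). ATP5MPL and ATP5MG rose by 0.45 and 0.35 (adjusted p = 0.0187 and 0.0408). ATP5MPL rose by 0.28 without control replicate 1 and was lost without KO replicate 2 or 3, and ATP5MG was lost without control replicate 1 or any KO library, with upper-quartile normalization and with at least 10 counts in every library. Of the catalytic head, ATP5F1A (alpha) fell by 0.21 (adjusted p = 0.0287), a call lost with no filter and when KO replicate 1 or 2 or control replicate 2 or 3 was left out, and ATP5F1B (beta), the highest nuclear member per length at 209 RPKM, differed by 0.01 (adjusted p = 0.919). ATP5S was the lowest nuclear complex V member tested (2.53 RPKM; ATP5ME with coding transcript length).

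Values are also given by chromosome, since whole chromosomes differed in their median. The median log2 fold change of all tested genes was under -0.2 on 7 autosomes (2, 7, 9, 13, 16, 18 and 22) and over 0.2 on chromosomes 17 and X (0.21 and 0.32). The 18 tested nuclear members on the former had 0 higher and 6 lower (NDUFA10, NDUFS1, NDUFA5, NDUFA4, UQCRC2 and ATP5F1A), 33.3% lower, where 36.3% of all genes there fell. The 5 members on chromosomes 17 and X (ATP5MC1, ATP5PD, NDUFB11, NDUFA1 and COX7B) all rose, where 38.5% of all genes there rose. On the remaining chromosomes 10 rose (17.5%) and 3 fell (5.26%) of 57 tested, beside 20.7% and 20.9% of all genes tested on any chromosome. The counts were 9 and 7 without control replicate 1 and 6 and 2 without KO replicate 2. The part of these chromosome-wide shifts in the members' values was not tested. With each chromosome's median subtracted, the nuclear members had a median of 0.12, with 56 above 0 and 24 below, or a median of 0.03, with 45 above 0 and 35 below, without control replicate 1.

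**Figure D4:**
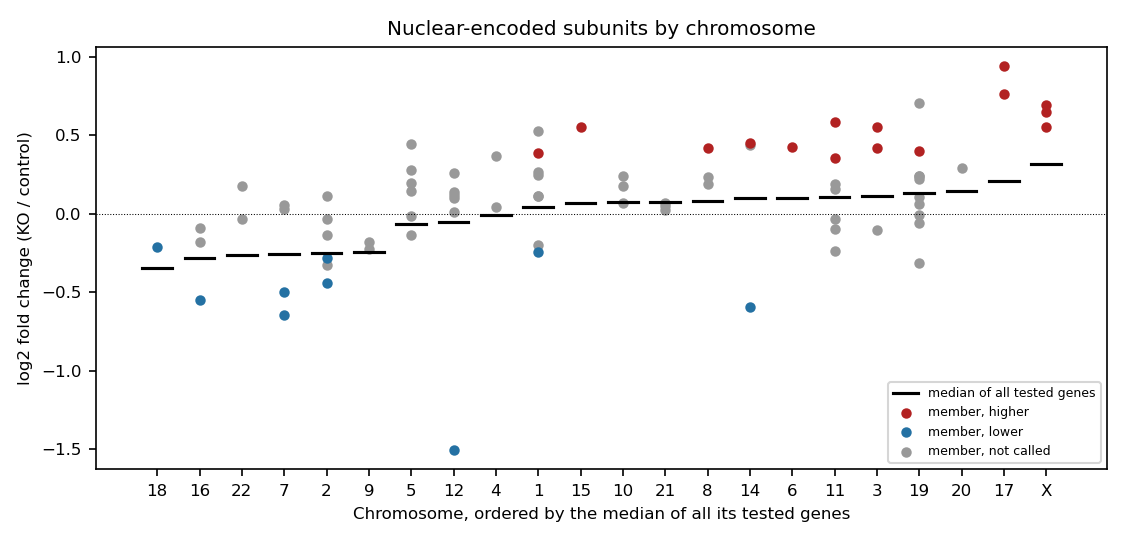
Log2 fold changes of the 80 tested nuclear-encoded subunits (points; red rose, blue fell, grey not called) by chromosome, with a black bar for the median of all tested genes of that chromosome. The 5 members on chromosomes 17 and X lie above 0 as red points, and 6 of the 9 blue points lie on chromosomes with medians under -0.2.

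Control replicate 1 had low counts of short transcripts, and most nuclear subunits are short. Across the 80 tested nuclear members the Spearman correlation between coding transcript length and the deviation of control replicate 1 from the other control libraries was 0.46, as a description over genes of the same libraries. The 53 members of up to 1000 bases had a median deviation of -0.47 on the log2 scale, 50 of them below 0, and the 27 longer ones had -0.07. Over 12941 protein-coding genes the correlation was 0.31, with medians of -0.21 for 988 short genes and 0.02 for the others. The log2 fold changes of the nuclear members moved with length too, with a median of 0.18 for the short and -0.03 for the long ones, or 0.05 and -0.07 without control replicate 1. Over the 12941 protein-coding genes, with all libraries, these medians were 0.14 and -0.005.

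**Figure D5:**
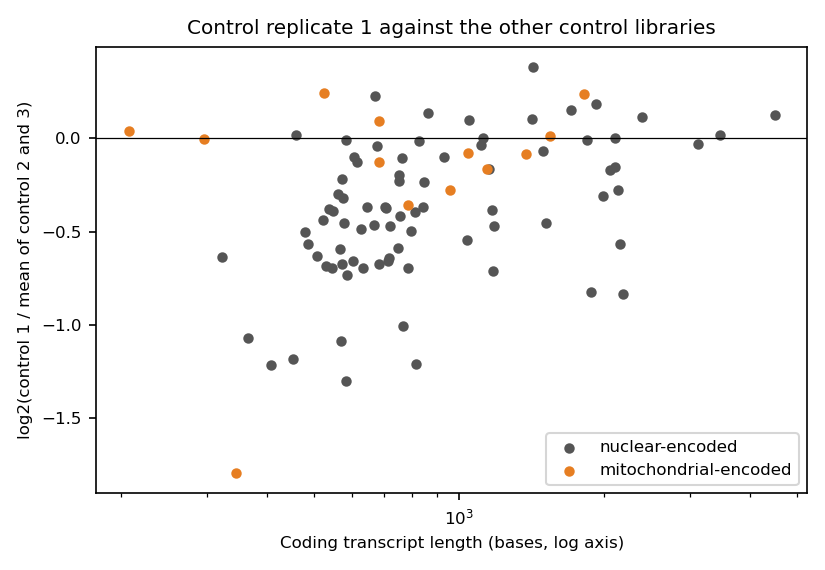
Log2 ratio of control replicate 1 to the mean of control replicates 2 and 3 for the 93 tested subunits, against coding transcript length in bases (log axis), with nuclear-encoded genes in grey and mitochondrial-encoded genes in orange. Of the nuclear genes of up to 1000 bases, 50 of 53 lie below 0, and MT-ND3 is the lowest point.

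Promoters were compared because members on the nuclear side were called in both directions. NRF1, GABPA (also called NRF2) and YY1 are factors known to act on respiratory genes. Their motifs were searched on both strands as the letters CGCATGCG (NRF1, its own reverse complement), CCGGAAG (GABPA) and AAGATGGC (YY1) in RefSeq windows (GRCh38.p14) from 250 bases before to 50 after each start, and 70 of the 90 nuclear members had an entry. The letters were found in 10 member promoters for NRF1 (14.3%, beside 2.02% of all 35116 promoters), in 20 for GABPA (28.6% and 10.3%), and in 11 for YY1 (15.7% and 2.89%). These shares are of unlike sets, since members had a single promoter each and the 35116 were not selected by gene type or expression. A longer NRF1 form, with a further G before and C after, was searched first and was in 4 member promoters (5.71%, beside 1.24% of all). At least 1 motif was present in 7 of 14 promoters of genes that rose, 1 of 5 that fell and 25 of 44 not called. No promoter entry was used for NDUFA4, NDUFA4L2 or ATP5S.

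The windows of 3 genes that rose and of 1 that fell are printed 5′ to 3′ on the gene's strand, with the motif in capitals, to show where the letters lie. They are NDUFB4 with the NRF1 letters (chr3:120596086-120596385, plus strand), UQCRC1 with the YY1 letters in the 50 bases after the start (chr3:48609597-48609896, minus strand), ATP5PD with the GABPA letters in reverse complement (chr17:75046920-75047219, minus strand), and NDUFS1, which fell, with the same GABPA letters (chr2:206159395-206159694, minus strand).
NDUFB4: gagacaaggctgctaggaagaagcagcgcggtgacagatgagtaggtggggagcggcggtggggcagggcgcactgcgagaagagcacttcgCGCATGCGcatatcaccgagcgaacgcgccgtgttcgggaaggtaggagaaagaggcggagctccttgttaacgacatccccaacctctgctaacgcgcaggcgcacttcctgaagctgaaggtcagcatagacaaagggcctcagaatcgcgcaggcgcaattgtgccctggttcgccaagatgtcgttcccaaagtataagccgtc
UQCRC1: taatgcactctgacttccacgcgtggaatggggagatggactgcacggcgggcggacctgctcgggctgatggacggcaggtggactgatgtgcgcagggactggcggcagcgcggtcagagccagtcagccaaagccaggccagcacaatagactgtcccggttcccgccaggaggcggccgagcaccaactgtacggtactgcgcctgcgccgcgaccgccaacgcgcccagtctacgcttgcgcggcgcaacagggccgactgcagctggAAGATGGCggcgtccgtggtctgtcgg
ATP5PD: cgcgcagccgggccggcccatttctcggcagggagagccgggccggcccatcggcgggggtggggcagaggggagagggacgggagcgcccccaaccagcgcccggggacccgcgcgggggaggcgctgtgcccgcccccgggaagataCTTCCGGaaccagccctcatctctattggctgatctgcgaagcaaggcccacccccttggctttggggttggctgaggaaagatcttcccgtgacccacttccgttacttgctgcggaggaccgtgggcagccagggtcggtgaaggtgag
NDUFS1: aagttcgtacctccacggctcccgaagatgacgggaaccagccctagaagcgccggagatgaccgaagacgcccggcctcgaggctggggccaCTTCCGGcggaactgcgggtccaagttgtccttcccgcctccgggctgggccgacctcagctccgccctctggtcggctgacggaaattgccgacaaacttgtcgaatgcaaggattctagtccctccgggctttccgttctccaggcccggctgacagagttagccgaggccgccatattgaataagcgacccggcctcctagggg
A match is a run of letters and was not tested as a binding site. The GABPA letters occurred in genes of both directions.

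Genes that build and serve the respiratory chain were taken from 9 lists by hand, with 254 of 262 genes tested. The chromosome is named below for some of these genes only. Of the 254, 59 rose (23.2%) and 26 fell (10.2%), beside 20.7% and 20.9% of all genes, and the median log2 fold change was 0.12 (0.09 without control replicate 1, with 62 higher and 36 lower). The counts were 47 and 16 without control replicate 3 and 40 and 15 without KO replicate 2. Among mitochondrial ribosomal proteins, which translate the 13 mitochondrial mRNAs, 20 rose and 5 fell of 78 (median 0.13, or 0.08 without control replicate 1). The 5 falls became 1 without control replicate 2 or 3 or KO replicate 1 or 2, and the 20 rises became 11 without KO replicate 2. MRPL27 rose from 29.8 to 61.0 CPM (log2 fold change 1.03 ± 0.12 SE, adjusted p = 7.45e-06) and MRPL17 from 44.2 to 89.1 CPM (1.01 ± 0.10, adjusted p = 9.9e-07). MRPL14 and MRPS18C rose by 0.73 and 0.67.

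Of the assembly factors, 2 rose (10.5%) and 1 fell (5.26%) of 19 for complex I, and 9 rose (26.5%) and 4 fell (11.8%) of 34 tested for complexes II to V (8 and 2 without KO replicate 2), where 20.7% of all genes rose and 20.9% fell. The complex I counts were 1 or 2 higher and 0 or 1 lower with each library left out. NDUFAF8, needed for complex I assembly and located on chromosome 17, rose from 28.4 to 57.7 CPM (log2 fold change 1.02 ± 0.12 SE, adjusted p = 4.15e-06), and ACAD9 by 0.30. COX17, a copper chaperone of complex IV, rose from 15.5 to 30.5 CPM (0.97 ± 0.18, adjusted p = 0.000466). TACO1, a translational activator of MT-CO1, COX11, another copper chaperone, and TMEM70, an ATP synthase assembly factor, rose by 0.86, 0.83 and 0.81. TACO1 and COX11 also lie on chromosome 17.

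Genes that keep and express the mitochondrial genome were mixed. In mtDNA maintenance and transcription 4 rose (19.0%) and 3 fell (14.3%) of 21, beside 20.7% and 20.9% of all genes (median 0.05). With a library left out the median ranged from 0.02 (control replicate 3) to 0.11 (KO replicate 1), and it was 0.09 without control replicate 1. TFAM, which packages mtDNA and starts its transcription, measured 60.7, 54.5 and 51.0 CPM in control and 75.1, 70.7 and 73.1 CPM in KO, a rise with no overlap (log2 fold change 0.40 ± 0.09 SE, adjusted p = 0.00323). MGME1, a mitochondrial exonuclease, and POLG2, the accessory subunit of the mtDNA polymerase, rose by 0.93 and 0.59, and TK2, a mitochondrial nucleoside kinase, and LONP1, a matrix protease, fell by 0.61 and 0.50. POLG2 lies on chromosome 17 and TK2 on chromosome 16.

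For mitochondrial RNA processing and stability, 2 rose (9.52%) and 3 fell (14.3%) of 21, beside 20.7% and 20.9% of all genes (median 0.06), the 2 rises becoming 1 without control replicate 2 or without any one KO library. LRPPRC, which stabilises mitochondrial mRNAs, measured 258, 200 and 198 CPM in control and 157, 162 and 177 CPM in KO (log2 fold change -0.40 ± 0.10 SE, adjusted p = 0.00554), with no overlap, or -0.27 without control replicate 1, and its gene lies on chromosome 2. FASTK, known for its part in MT-ND6 mRNA, measured 74.8, 86.0 and 82.7 CPM in control and 54.5, 53.2 and 48.6 CPM in KO (-0.64 ± 0.09, adjusted p = 6.08e-05), also with no overlap, on chromosome 7. REXO2, an oligoribonuclease, fell by 0.27, and FASTKD5, which acts in RNA processing, rose by 0.52. Their part in the levels of the mitochondrial mRNAs was not tested.

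Of the regulators of respiratory genes, 2 rose and 5 fell of 18 tested, beside 20.7% and 20.9% of all genes. The 2 rises became 4 without control replicate 1, 1 without control replicate 3 and 0 without KO replicate 1 or 2, and the 5 falls became 3 without control replicate 3 or KO replicate 2. EPAS1, a hypoxia-inducible factor on chromosome 2, measured 1027, 1018 and 1032 CPM in control and 461, 465 and 444 CPM in KO (log2 fold change -1.17 ± 0.07 SE, adjusted p = 2.58e-09), the largest change of this list. PPARGC1A, the coactivator known as PGC-1alpha, measured 25.8, 19.9 and 21.4 CPM in control and 12.5, 10.9 and 16.3 CPM in KO (-0.76 ± 0.16, adjusted p = 0.0014). Neither overlapped between groups. NRF1, on chromosome 7, rose by 0.39 (adjusted p = 0.0292) and GABPB2 fell by 0.45 (adjusted p = 0.0181), while GABPA, ESRRA and PPARGC1B had log2 fold changes of -0.25, 0.35 and -0.38 that did not pass.

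Of electron donors, carriers and uncouplers 7 rose (31.8%) and 2 fell (9.09%) of 22 tested, beside 20.7% and 20.9% of all genes (median 0.11, or 0.07 without control replicate 1). The counts were 5 and 4 without KO replicate 1. The ADP/ATP carriers, which exchange the product of ATP synthase across the inner membrane, had different values: SLC25A5 rose from 211 to 391 CPM (log2 fold change 0.89 ± 0.08 SE, adjusted p = 2.42e-07), SLC25A6 rose by 0.51, and SLC25A4, the isoform of heart and muscle, fell from 83.8 to 49.2 CPM (-0.77 ± 0.10, adjusted p = 2.32e-05). SLC25A5 and SLC25A6 lie on the X chromosome. VDAC1, the outer membrane channel, rose by 0.46.

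The list of the citric acid cycle also held PDHA1, PDHB, PDHX and DLAT of the pyruvate dehydrogenase complex, and PC, pyruvate carboxylase. In this list 7 rose (36.8%) and 1 fell (5.26%) of 19, beside 20.7% and 20.9% of all genes (median 0.09). PDHA1, PDHX and DLAT were among the rises. The counts were 7 and 5 without control replicate 1. The 7 rises became 4 without control replicate 2 or 3 or KO replicate 2 or 3. PDHA1 and IDH3G, both X-linked, rose by 0.66 and 0.59, and PDHX rose by 0.37. In protein import 6 rose (27.3%) and 2 fell (9.09%) of 22 tested, beside the same shares of all genes (median 0.14, or 0.04 without control replicate 1), the 2 falls becoming 4 without control replicate 1 and 1 without control replicate 3 or KO replicate 1 or 2, with TIMM10, TIMM17B, TIMM8A and TIMM8B higher by 0.69, 0.65, 0.64 and 0.51. Without control replicate 1, ACAD9 (0.22, adjusted p = 0.0557), TIMM8B (0.27, adjusted p = 0.0683) and MRPS18C (0.55, adjusted p = 0.0845) no longer passed. ACAD9, TIMM8B and MRPS18C (0.38 without KO replicate 2), and also POLG2, REXO2, NRF1, GABPB2, PDHX and TIMM8A, each lost the call when at least 1 other library was left out.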

How the data were processed

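RNA of 3 control and 3 SRRM4 KO libraries of UE7T-9 cells was measured by non-stranded mRNA-seq. The authors deposited raw counts per gene for 58735 genes, without normalization. The submitters' processing notes name HISAT2 2.0.5, featureCounts 1.5.0-p3 and DESeq2. The build and the counting of reads shared by genes are not given in the sources used here. All gene IDs were found in GENCODE release 29 (GRCh38), with identical coordinates. Groups and replicates came from the sample titles and genotypes.

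The counts of all genes were fitted with edgeR 4.0.16 in R 4.3.3 (TMM, filterByExpr, prior count 0.125, quasi-likelihood test, Benjamini-Hochberg over the 15341 genes tested), and genes with an adjusted p under 0.05 were called. SE is the absolute log2 fold change over the square root of F. CPM used TMM-scaled sizes, and RPKM the deposited gene length. Values of 1 per library were compared by exact two-sided permutation tests, on isoform RPKM with a pseudocount of 0.1. P-values measure the spread between these libraries, which may be technical. The procedure was tested on simulated counts. Of 200 changed genes it recovered 77 at a log2 change of 0.5, 152 at 1 and 180 at 2. A gene that was not called may therefore still differ, above all by 0.5 or less.

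The genes named were SRRM4, the mitochondrial members, the called nuclear members, isoform pairs, the highest and lowest member of each complex, members with few counts, up to 4 called genes per list with at least 100 mean counts, TFAM and other regulators, and nuclear copies. Some genes that this rule or the lists take are not reported here. Members and lists were chosen with earlier results of these data known. The MT-ND2/MT-CO1 and MT-ND5/MT-CYB ratios, RPKM by coding transcript length, and a shorter NRF1 motif were added after the data were seen. Alternatives were other scalings and filters, DESeq2 1.42.0, a replicate block, leaving out each library in turn, and chromosome centring.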

Additional observations from a re-analysis of the deposited data

How the results depend on the processing

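The nuclear counts of 15 higher and 9 lower ranged over 11 to 19 and 6 to 16 with each library left out, the highest lower count, 16, being without control replicate 1. The mitochondrial count of 8 lower stayed at 7 or 8 in every alternative, while the count of 1 higher was 0 with at least 10 counts in every library, with nuclear-only library sizes and with upper-quartile normalization, 2 without a filter, and 0 to 2 with a library left out. Past a log2 fold change of 1, the count of 0 higher ranged from 0 to 1 and the count of 3 lower stayed at 3. The list count of 26 lower ranged from 15 to 36. The cause of these moves was not tested. The mitochondrial-to-nuclear ratio ranged from -0.73 to -0.46 (log2), and ATP5MC2/ATP5MC3 from -0.035 to 0.060, with a library left out. Replicate numbers did not pair the libraries (correlations of same-numbered libraries -0.09, 0.11 and -0.10). With the replicate block 21 nuclear members were higher and 7 lower (SDHC and ATP5F1A lost), and 2 mitochondrial members were higher. DESeq2 lost NDUFA1 alone among the called members. For 49 named members, 579 of 636 alternative values kept direction and side of the threshold, 40 lost the call, 6 gained it and 11 changed sign, all in members not called: the log2 fold change of ATP5F1B (-0.00705 with at least 10 counts, -0.020 with upper quartile, -0.029 to 0.034 with a library left out), and, with a library left out, ATP5MC2 (-0.0016 to 0.19), COX6A1 (-0.094 to 0.22), COX6B1 (-0.11 to 0.16), MT-CO3 (-0.15 to 0.16) and UQCRHL (-0.043 to 0.53). MT-ATP8 and the members not tested had few counts, which limits what can be said of them.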
